A study of Mus musculus with 6 samples.

Results

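Replication-dependent histone genes were followed on 6 arrays of neuro2a (N2a) cells, a mouse neuroblastoma line, after knockdown of the transcription factor NF-Y. The genes were taken by name: any gene of the RefSeq table whose current or older symbol began with Hist1h, Hist2h, Hist3h or Hist4h, or whose symbol was H1f1 to H1f5, or H2ac, H2bc, H3c or H4c followed by digits. This gave 71 genes, of which 48 had a probe matched by accession. All 48 passed the filter on dim probes, and they were read among 16490 genes tested. The control group was 3 samples of N2a cells given an empty miR RNAi vector, and the knockdown group was 3 samples given miR RNAi vectors that target the mRNAs of NF-YA and NF-YC. By the study's methods the vectors also carry EmGFP, a green fluorescent protein, were delivered with a lipid reagent and were left for 2 days, so each sample is a culture in which cells without vector could remain. The sources used here do not say that the 3 samples of a group were separate cultures, and the p-values therefore measure the spread between samples, which may be technical.

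Histones are the proteins around which DNA is wound: H2A, H2B, H3 and H4 form the core of the nucleosome, and H1 binds the linker DNA between nucleosomes. The replication-dependent genes are small, mostly lack introns, lie in clusters (Hist1, Hist2, Hist3 and Hist4 in the older mouse names) and are transcribed mainly in S phase. Their mRNAs usually end in a stem-loop and not in a poly(A) tail, which needs its own processing factors, although some of these genes also give polyadenylated mRNA. NF-Y is a trimer of NF-YA, NF-YB and NF-YC that binds the CCAAT box, a motif known from many H1, H2A, H2B and H3 promoters.

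Of the 48 genes measured, 6 were H1, 14 H2A, 11 H2B, 8 H3 and 9 H4 genes, out of 6, 21, 19, 12 and 13 named. The 23 genes with no matched probe were not analysed here. Levels are log2 of the array software's processed signal minus the log2 of the 75th percentile of the same array, so 0 is that percentile, and a change is the knockdown mean minus the control mean of these log2 levels. Each gene was read from its brightest probe, and levels of different probes are not comparable with each other. Of the members, 46 were well above background on all 6 arrays. On no array was H1f3 well above background, and H2ac6 was so on control 3 and knockdown 1 and 3 only. The 75th percentiles lay between 718 and 754 intensity units and no spot was saturated. Correlations between arrays, over the probes that passed the filter, were 0.989 to 0.994 within groups and 0.987 to 0.990 between groups.

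Both targeted genes were lower on all knockdown arrays. Nfya read 0.14, 0.15 and 0.21 on the control arrays and -0.66, -0.52 and -0.59 on the knockdown arrays. Nfyc read 4.0, 3.93 and 3.98 against 2.12, 2.20 and 2.18. The changes were -0.76 (SE 0.055, limma adjusted p = 0.00128) for Nfya and -1.81 (SE 0.045, limma adjusted p = 0.000323) for Nfyc.

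The promoters are shown because CCAAT, the sequence NF-Y binds, divides the histone classes. Each run below is the 250 bases before the annotated start in RefSeq, build GRCm38.p6, read 5′ to 3′ on the gene's own strand, with CCAAT or its reverse complement ATTGG in capitals. H1f2 (chr13:23738557-23738806, plus strand), H1f5 (chr13:21780626-21780875, minus strand), H2aw (chr11:58954435-58954684, plus strand) and H3c11 (chr13:21783398-21783647, minus strand) are genes whose signal fell. H1f1 (chr13:23763418-23763667, plus strand) is a gene whose signal rose. H4c12 (chr13:21750554-21750803, minus strand) and H4c4 (chr13:23581318-23581567, plus strand) are H4 genes that passed no test, the first without and the second with a CCAAT.
H1f2: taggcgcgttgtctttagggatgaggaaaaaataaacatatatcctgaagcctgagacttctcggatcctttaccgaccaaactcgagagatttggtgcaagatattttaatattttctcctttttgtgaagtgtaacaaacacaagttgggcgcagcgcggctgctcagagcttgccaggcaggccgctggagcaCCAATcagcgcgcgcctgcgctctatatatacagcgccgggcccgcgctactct
H1f5: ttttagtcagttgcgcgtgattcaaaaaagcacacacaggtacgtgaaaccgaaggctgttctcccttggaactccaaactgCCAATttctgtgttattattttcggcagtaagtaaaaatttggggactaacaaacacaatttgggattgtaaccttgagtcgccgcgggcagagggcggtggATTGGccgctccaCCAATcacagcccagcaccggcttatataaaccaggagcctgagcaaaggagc
H2aw: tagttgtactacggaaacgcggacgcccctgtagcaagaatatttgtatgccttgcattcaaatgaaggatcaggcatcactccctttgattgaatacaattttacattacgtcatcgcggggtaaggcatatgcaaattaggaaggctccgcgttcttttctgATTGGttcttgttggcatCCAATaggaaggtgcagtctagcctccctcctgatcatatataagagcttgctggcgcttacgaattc
H3c11: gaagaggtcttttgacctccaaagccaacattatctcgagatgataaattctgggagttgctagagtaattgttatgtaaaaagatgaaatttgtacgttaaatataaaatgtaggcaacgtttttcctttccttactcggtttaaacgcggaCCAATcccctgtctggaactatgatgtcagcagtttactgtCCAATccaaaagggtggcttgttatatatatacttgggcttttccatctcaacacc
H1f1: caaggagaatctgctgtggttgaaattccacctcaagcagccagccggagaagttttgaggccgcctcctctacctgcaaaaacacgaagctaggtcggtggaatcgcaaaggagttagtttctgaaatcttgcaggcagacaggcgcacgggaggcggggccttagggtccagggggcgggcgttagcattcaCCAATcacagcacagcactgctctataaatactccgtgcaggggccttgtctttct
H4c12: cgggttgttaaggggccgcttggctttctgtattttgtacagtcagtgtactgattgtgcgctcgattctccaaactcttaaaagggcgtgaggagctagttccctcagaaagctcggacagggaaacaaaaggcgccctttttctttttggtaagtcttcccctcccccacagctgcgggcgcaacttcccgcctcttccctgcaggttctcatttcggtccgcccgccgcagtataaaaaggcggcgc
H4c4: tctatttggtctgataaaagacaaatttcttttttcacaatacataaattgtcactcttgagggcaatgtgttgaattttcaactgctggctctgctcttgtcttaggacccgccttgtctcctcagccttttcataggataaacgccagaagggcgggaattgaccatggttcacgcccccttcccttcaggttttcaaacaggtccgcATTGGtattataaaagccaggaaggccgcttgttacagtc

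The motif lies close to the start in these genes. Its first base was at -54 in H1f2, at -168, -66 and -53 in H1f5, at -86 and -68 in H2aw, at -97 and -56 in H3c11, at -56 in H1f1 and at -40 in H4c4, counted from -1 as the last base before the start. Among the 62 named genes with a promoter window (250 bases before to 50 after the start), 53 held CCAAT on either strand, or 85.48%, against 41.06% of the 27025 genes of the table with a window. All 6 H1, 18 H2A, 16 H2B and 10 H3 genes held it, but only 3 of 12 H4 genes did, H4c1, H4c3 and H4c4. In H3c14 and H3c15 the only CCAAT lay after the start, at +30 and +15. The number per gene ran from 1 to 3 in H1, from 2 to 5 in H2A and H2B and from 1 to 5 in H3. Over all windows there were 147 CCAATs with a median position of -98, and 71.4% of them began between -150 and -30. Windows are not independent, since 20 of the genes, in 10 pairs, share bases of one stretch between them. H2ac5-ps, H2ac14, H2af-ps2, H2bc4, H2bc21, H2bu1-ps, H3c1, H3c7 and H4c14 had no entry.

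Other elements known from histone promoters divided the classes in a different way. The octamer ATTTGCAT, on either strand, was in 14 of the 62 genes (22.58%, against 1.97% of all genes), 7 of them H2A and 7 H2B. The H1 element AAACACA was in 5 of 6 H1 genes, 2 H2A and 2 H2B genes (8.22% of all genes), and TATAAA was in 35 of the 62 (56.45%, against 15.67%). No CCAAT overlapped any of these other motifs. A match gives the letters only and does not show binding.

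Histone genes called lower in knockdown cells were 2 of 6 in H1, 2 of 14 in H2A, 4 of 11 in H2B, 4 of 8 in H3 and 0 of 9 in H4, and 1 H1 and 1 H2A gene were called higher. The difference between the classes was not tested. A gene was called when its limma adjusted p was under 0.05 and its fold change over 1.5. By this rule 12 of the 48 genes fell and 2 rose, where 5% of all genes tested fell and 3.91% rose. By adjusted p alone, 24 were lower and 3 higher, against 15.8% and 15.7% of all genes tested. The median change was -0.31, against 0.01 over all genes tested, and 35 of the 48 changes were below 0. All knockdown arrays lay below all control arrays for 28 genes (27.1% of all genes tested) and above them for 9 (27.7%). The median deviation of the 48 genes from their control means was 0.06, 0.01 and -0.06 on the control arrays and -0.31, -0.31 and -0.32 on the knockdown arrays, so the knockdown arrays were alike. In a bulk sample, fewer cells in S phase and less histone mRNA per cell cannot be told apart.

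**Figure D1:**
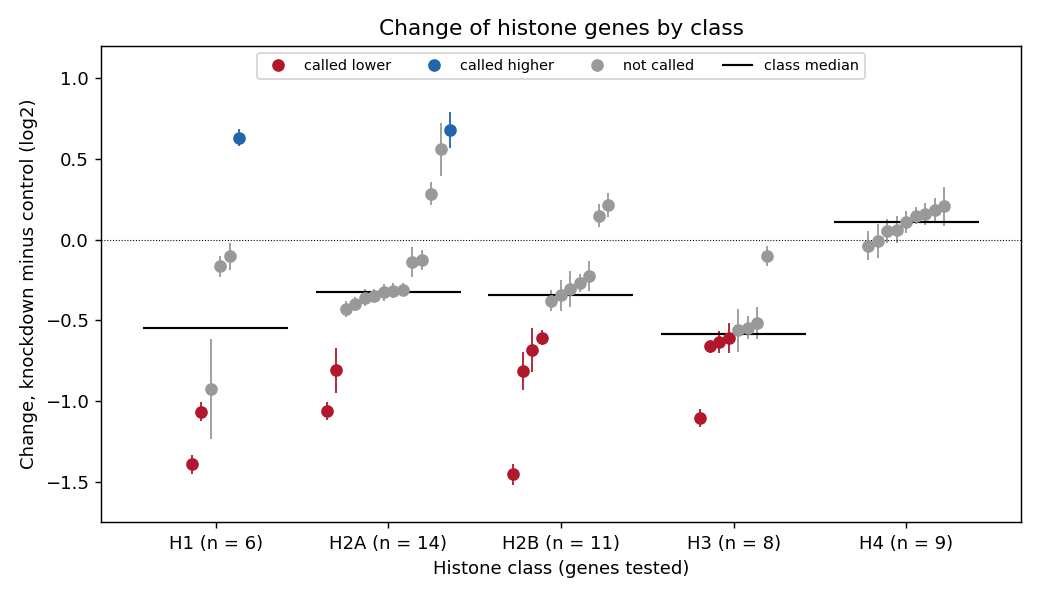
Change of the 48 histone genes by class, as knockdown minus control on the log2 scale; points are genes, bars are the limma standard error, and the black line is the class median. The H3 points all lie below 0 and the H4 points lie between -0.04 and 0.21, while H1 and H2A hold called genes on both sides; the H1 point at -0.93 with the wide bar is H1f3, which no array measured well above background.

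The H1 linker histone genes moved in opposite directions. H1f2 (Hist1h1c) read -0.63, -0.58 and -0.46 on the control arrays and -1.96, -1.96 and -1.92 on the knockdown arrays. It was 2.62-fold lower, a change of -1.39 (SE 0.059, limma adjusted p = 0.000415). H1f5 (Hist1h1b) read 6.09, 6.04 and 5.92 against 4.95, 4.97 and 4.92. This was 2.09-fold lower, a change of -1.07 (SE 0.059, limma adjusted p = 0.000681). In both genes the knockdown arrays lay well below the controls and close to each other. H1f1 (Hist1h1a) went the other way, with 0.82, 0.77 and 0.68 on the control arrays and 1.41, 1.4 and 1.35 on the knockdown arrays. It was 1.55-fold higher, a change of 0.63 (SE 0.053, limma adjusted p = 0.00185). Centring each array on its median lowered every change by about the same amount, moving the median of all genes tested to -0.11, and left H1f1 at 0.52 and uncalled, with H2ac21 (0.56) likewise. H1f4 (Hist1h1e) at -0.17 and H1f6 (Hist1h1t), the testis H1, at -0.10 were not called. H1f3, not well above background in either group, is given no fold and was uncalled, although leaving out control 2 gave a limma adjusted p of 0.0221.

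Among the 14 H2A genes 2 fell, 1 rose and 9 had an adjusted p under 0.05 with a change below 0. H2aw (Hist3h2a) read 0.91, 0.92 and 1.05 on the control arrays against -0.07, -0.15 and -0.08 on the knockdown arrays. It was 2.09-fold lower, a change of -1.06 (SE 0.058, limma adjusted p = 0.000667). H2ac8 (Hist1h2ae) was less steady, with -2.97, -2.66 and -3.17 on the control arrays against -3.80, -3.65 and -3.78. Its change was -0.81 (SE 0.14, limma adjusted p = 0.0148), and the call was lost without control 1, knockdown 1 or knockdown 3 (limma adjusted p = 0.0546, 0.055 and 0.0576). H2ac21 (Hist2h2ab) rose, from -1.61, -1.79 and -1.99 to -1.14, -1.01 and -1.19. Its change was 0.68 (SE 0.11, limma adjusted p = 0.0135), but without control 2 or knockdown 2 the adjusted p was 0.0522 and 0.0506, and without control 3 the change was 0.58, just under the fold required. H2ac6 (Hist1h2ac) at 0.56 was not called (limma adjusted p = 0.0675), and its low signal crossed the threshold (0.70, limma adjusted p = 0.0362) without control 3. With array weights H2ac6 was called as well (0.587, limma adjusted p = 0.0462).

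Read from the brightest probe of each gene, the largest block of H2A genes shifted by a small and even amount. The probes of H2ac10, H2ac11, H2ac12, H2ac15, H2ac19, H2ac20 and H2ac22 all read between 8.53 and 9.49 on every array. Their changes lay between -0.43 and -0.31, with knockdown arrays below control arrays in all 7 and limma adjusted p between 0.00389 and 0.0111, so none reached the fold required. H2ac22 (Hist1h2an), for example, read 9.05, 8.97 and 8.90 on the control arrays and 8.54, 8.56 and 8.53 on the knockdown arrays. The replacement gene H2aj, whose probe read 9.21, 9.21 and 9.11 against 8.84, 8.79 and 8.76, changed by -0.38 (SE 0.051, limma adjusted p = 0.00682). Over the 20 alternatives the change of H2aj ran from -0.50 to -0.0029, with a limma adjusted p of up to 0.98. When an array was left out it ran from -0.41 to -0.36. The coding sequences of H2A genes are nearly identical, the scanner tables hold no probe sequences, and whether these probes read each other's mRNA was not tested. Nor was this tested for the probes of the other histone classes. H2ac15 (Hist1h2ak) had another probe, at 7.15, 7.12 and 7.05 against 6.35, 6.40 and 6.30, which gave -0.76 (SE 0.051, limma adjusted p = 0.00112) where the brightest probe gave -0.32.

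Among the 11 H2B genes 4 were called lower and none higher. Of these called genes H2bc4, H2bc23 and H2bc21 are long, with an annotated span over 1000 bases. The 5 H2B genes with such a span had 3 called lower and a median change of -0.68. The part of gene length was not tested. H2bc4 (Hist1h2bc) read 1.53, 1.44 and 1.60 on the control arrays and 0.15, 0.02 and 0.03 on the knockdown arrays. It was 2.74-fold lower, a change of -1.45 (SE 0.066, limma adjusted p = 0.000463). H2bu2 (Hist3h2ba) read 2.39, 2.40 and 2.42 against 1.86, 1.78 and 1.75, a change of -0.61 (SE 0.047, limma adjusted p = 0.00154) that stood just past the fold required and fell short of it without knockdown 3 (-0.58). H2bc23 (Hist1h2bq) at -0.81 (SE 0.12, limma adjusted p = 0.00877) and H2bc21 (Hist2h2be) at -0.68 (SE 0.14, limma adjusted p = 0.0228) were the other two called. H2bc23 was at -0.29 with normexp and quantile normalization, and with the slide row as a block its limma adjusted p was 0.069. H2bc21 lost its call without control 2, control 3, knockdown 1 or knockdown 3 (limma adjusted p from 0.0678 to 0.0792). The 7 uncalled H2B genes lay between -0.38 and 0.21, from H2bc1 (Hist1h2ba), the testis H2B, to H2bc18 (Hist2h2bb).

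Of the 8 H3 genes 4 were called lower and none higher. All 8 changes were below 0 (H3c3 turned to 0.04 with normexp and quantile normalization), 7 of them with a limma adjusted p under 0.05 and without overlap between the groups. H3c11 (Hist1h3i) read 1.56, 1.42 and 1.41 on the control arrays and 0.35, 0.38 and 0.35 on the knockdown arrays, a change of -1.10 (SE 0.057, limma adjusted p = 0.000597) or 2.15-fold lower. H3c4 (Hist1h3d) read 6.91, 6.93 and 6.88 against 6.21, 6.26 and 6.27, a change of -0.66 (SE 0.042, limma adjusted p = 0.000963). In both genes the groups were far apart relative to the spread within them. H3c14 (Hist2h3c1) at -0.63 and H3c7 (Hist1h3f) at -0.61 were also called, and H3c15, H3c8 and H3c1 at -0.56, -0.55 and -0.52 were short of the fold required. H3c7 was uncalled without control 1 (-0.55) or knockdown 3 (-0.57), while H3c1 and H3c8 were called without control 3 (both -0.61). The number of H3 genes called was 7 with median centring and 2 with normexp and quantile normalization. H3c3 (Hist1h3c) stood apart from the class, with 2.75, 2.75 and 2.60 against 2.63, 2.62 and 2.54, overlapping groups and a change of -0.10.

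The H4 genes had changes near 0. None of the 9 was called, where 5% and 3.91% of all genes tested were called lower and higher, so a count of 0 in 9 is near the share over all genes. None had a limma adjusted p under 0.05, and their changes ran from -0.04 to 0.21 with a median of 0.11. H4c12 (Hist1h4k) read 7.50, 7.41 and 7.29 on the control arrays and 7.47, 7.51 and 7.37 on the knockdown arrays, and H4c14 (Hist2h4) read 7.27, 7.17 and 7.09 against 7.27, 7.36 and 7.22. The groups overlapped in both, and the changes were 0.05 (SE 0.074) and 0.11 (SE 0.068). H4f16 (Hist4h4) at -0.01 and H4c11 (Hist1h4j) at -0.04 were nearest to no change on the negative side, and their sign turned with quantile normalization (0.04 and 0.02), as that of H4c12 did with median centring (-0.06). H4c9 (Hist1h4i) showed that a gene's probes can differ: its brightest probe gave 0.15, and its other probe, at 0.24, 0.04 and 0.15 against -0.28, -0.38 and -0.42, gave -0.50 (SE 0.072, limma adjusted p = 0.00849). In none of the 20 alternatives was an H4 gene called. Whether the H4 probes read each other's mRNA was not tested, so the 9 genes may not be 9 separate measurements.

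**Figure D2:**
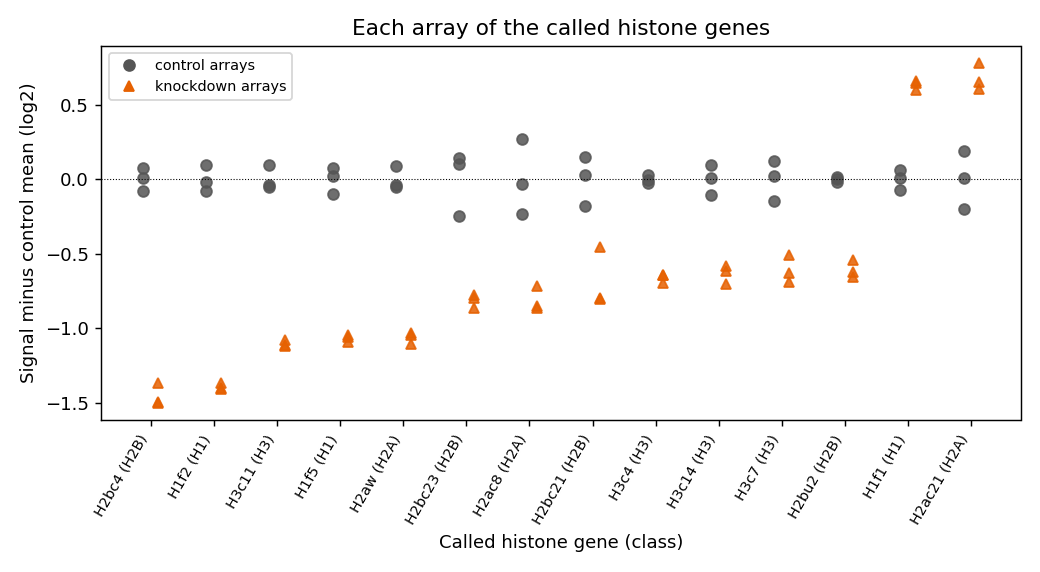
Signal of the 14 called histone genes on each array, as the log2 difference from the gene's control mean; grey circles are the 3 control arrays and orange triangles the 3 knockdown arrays. In each gene the 3 knockdown arrays lie on one side of the controls, and H2ac8, H2bc21, H2bc23 and H2ac21 show the widest spread within a group.

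The arrays sat in 2 rows of one slide, and this touches the results above. Controls and knockdown 1 lay in row 1, and knockdown 2 and 3 in row 2, where no control lay. With the row as a block, so that knockdown 1 alone against the 3 controls carries the change, 7 genes were called lower (H1f2, H1f5, H2aw, H2bc4, H3c4, H3c11 and H3c14) and 1 higher (H1f1). The knockdown arm then rests on 1 array, and the spread comes from within the rows. With normexp background correction and quantile normalization the lower calls were these genes without H3c14. The 6 genes H1f2, H1f5, H2aw, H2bc4, H3c4 and H3c11 were called lower in all 20 alternatives, with the change of H2bc4 between -1.57 and -1.37 and that of H1f2 between -1.51 and -1.18.

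Called genes lay in the Hist1, Hist2 and Hist3 clusters. In Hist1, on chromosome 13, 8 of 36 genes measured fell and 1 rose, with a median change of -0.31. In Hist2 the counts were 2 and 1 of 9, with a median of -0.36. Of all genes tested 5% fell and 3.91% rose. Both genes measured in Hist3, H2aw and H2bu2, fell, and the only Hist4 gene, H4f16, was at -0.01. H2A and H2B genes often stand back to back as neighbours and share the stretch between them. Pairs were taken here as neighbours less than 1000 bases apart, without comparing strands, and 5 pairs had both genes measured. In H2ac6 and H2bc4 the changes were 0.56 and -1.45, and in H2ac22 and H2bc22 they were -0.43 and 0.15. In H2ac8 and H2bc8 they were -0.81 and -0.34, in H2bc1 and H2ac1 -0.38 and -0.14, and in H2ac20 and H2bc21 -0.36 and -0.68. The signs were alike in 3 pairs and opposite in the other two, of which H2bc22 turned to -0.00077 with normexp and quantile normalization. These differences within pairs were not tested, and in the pairs of opposite sign H2ac6 had little signal over background and H2bc22 was not called.

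**Figure D3:**
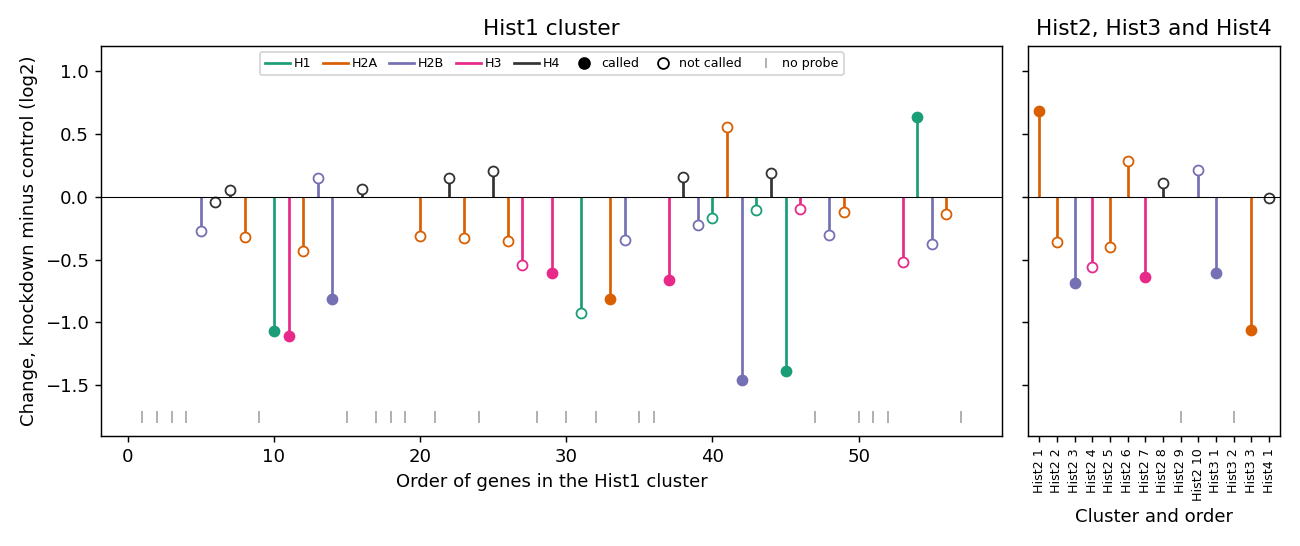
Change of each histone gene in its order along the Hist1 cluster (left) and in the Hist2, Hist3 and Hist4 clusters (right), as knockdown minus control on the log2 scale, coloured by class; filled circles are called genes and grey ticks mark genes with no matched probe. Called genes are spread along the Hist1 cluster, and the black H4 stems stay near 0 among neighbours that fell.

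The change was next set beside the promoter motif. Of the 43 measured genes with a window, 37 held CCAAT, and among these 9 fell and 2 rose, with a median change of -0.33. Over all genes tested with a window, 6.6% of 5577 with CCAAT and 3.88% of 7521 without it were called lower, with medians of -0.02 and 0.02. Called higher were 179 of the 5577 and 312 of the 7521. The 6 histone genes without CCAAT had a median change of 0.06, and none was called. A count of 0 in 6 is near the share over all genes without CCAAT. All 6 are H4 genes, and the only measured H4 genes with CCAAT, H4c3 and H4c4, changed by 0.19 and 0.16. By this window only these 2 H4 genes separate the motif from the class, which is too few to tell them apart. H3c14 and H3c15, whose only CCAAT lies after the start, changed by -0.63 and -0.56, and H3c14 was called lower. By the number of CCAATs in the classes other than H4, the median change was -0.56 with 1 (7 genes), -0.35 with 2 (9 genes) and -0.32 with 3 or more (19 genes). The median with 1 CCAAT was -0.36 (6 genes) when H1f3, not well above background, was left out. H2ac6, dim as well, was kept among the genes with 3 or more. H1f2, which fell, and H1f1, which rose, each held 1 CCAAT at nearly the same place, as printed above. The 13 measured genes with the octamer had a median change of -0.30, with 2 called lower, where 5% of all genes tested were.

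**Figure D4:**
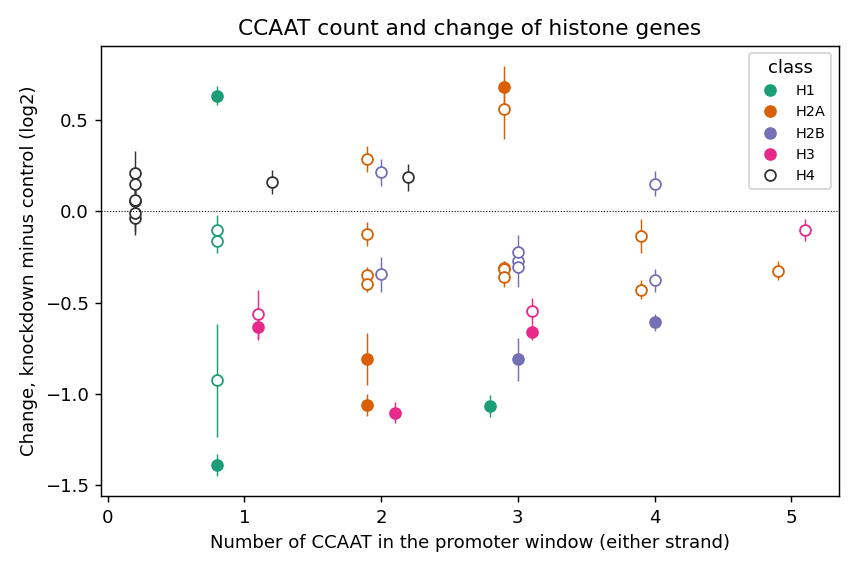
Change of the 43 histone genes with a promoter window against the number of CCAAT in the window on either strand (points offset sideways by class); bars are the limma standard error and filled circles are called genes. All genes at 0 are H4 genes, and genes with 1 CCAAT span from -1.39 to 0.63.

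The genes that act on histone genes and their mRNAs were read from lists. In the list for transcription of histone genes 2 of 12 fell and 1 rose, where 5% of all genes tested fell and 3.91% rose. All were NF-Y subunits: the targeted Nfya and Nfyc as above, and Nfyb at 0.83 (SE 0.06, limma adjusted p = 0.00131). Hinfp, an activator known from H4 promoters, read 1.07, 1.0 and 0.96 against 0.96, 1.0 and 0.94, a change of -0.04. Npat, the coactivator of all classes, was dim and scattered (0.14, SE 0.45, limma adjusted p = 0.86). E2f1, a regulator of S phase entry, was at -0.50 (limma adjusted p = 0.00712) and short of the fold required.

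In the list for 3′ end processing and decay of histone mRNA, 1 of 20 genes rose and none fell. Over all genes tested 3.91% rose and 5% fell, so these counts are near the share over all genes. The gene that rose was Zfp473, whose protein is a component of the U7 machinery that cuts histone pre-mRNA. It read -2.75, -2.50 and -2.44 on the control arrays and -0.97, -0.88 and -0.99 on the knockdown arrays, a change of 1.62 (SE 0.096, limma adjusted p = 0.000792) or 3.07-fold higher. Its other probe rose by 1.18 (SE 0.095, limma adjusted p = 0.00166). Slbp, the stem-loop binding protein, was at 0.30 (limma adjusted p = 0.0133) and Casp8ap2 (FLASH) at 0.42 (limma adjusted p = 0.0337), both short of the fold required, and the median of the list was 0.07. The labelling kit primes from poly(A) tails, and which form of histone mRNA gave the signals was not tested.

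In the lists of histone chaperones, replacement histones and S phase genes 1 gene each was called lower and none higher, where 5% and 3.91% of all genes tested were called. Of 24 chaperone and deposition genes only Atrx was called, at -0.63 (limma adjusted p = 0.00644), and it lost the fold required without control 3 (-0.58). Daxx, its partner in depositing H3.3, was at 0.38 and uncalled. Of 11 replacement histone genes, which are expressed outside S phase, only H3f3b, one of the H3.3 genes, was called, reading 7.33, 7.26 and 7.31 against 6.68, 6.64 and 6.67, a change of -0.64 (SE 0.042, limma adjusted p = 0.00104). The linker gene H1f0 was at 0.41 and H1f10 at 0.42, and H2az1 at -0.05. By adjusted p alone 5 of the 11 replacement genes were lower and 2 higher, and 2 and 4 of the 24 chaperone genes. Of the 20 S phase genes reported here 1 was called lower, Rrm2, a subunit of ribonucleotide reductase, at -0.62 (limma adjusted p = 0.00112), with a list median of -0.03. By adjusted p alone 7 of the 20 were lower and 1 higher, against 15.8% and 15.7% of all genes tested. With quantile normalization Rrm2 (-0.57) and H3f3b (-0.55) were short of the fold required.

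**Figure D5:**
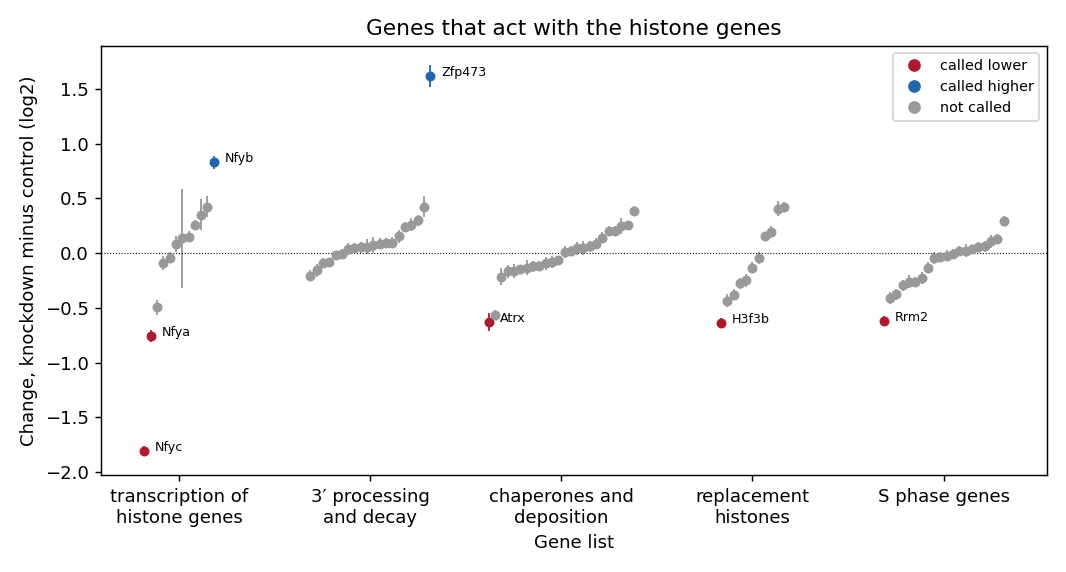
Change of the genes in 5 lists that go with the histone genes, as knockdown minus control on the log2 scale; points are genes, bars are the limma standard error, and called genes are named. Zfp473 and Nfyb are the only genes called higher, and most S phase and chaperone genes lie within 0.5 of 0.

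Markers of the labelled cell type were present. Of the 13 neuroblast and neuron genes reported here, 12 were tested and all 12 were well above background on every array, with none called. Their changes ran from -0.49 (Phox2a) to 0.49, with Tubb3 at 0.07. By adjusted p alone 3 of the 12 were lower and 2 higher, against 15.8% and 15.7% of all genes tested. The summed signal of the 12 markers, in multiples of the array's 75th percentile, was 390 to 399 on control and 354 to 367 on knockdown arrays. Of the 11 markers of glia, fibroblasts, immune and endothelial cells reported here, 10 were tested and 1 fell, where 5% of all genes tested fell. The marker that fell was the collagen gene Col1a1 (-0.77, limma adjusted p = 0.0491). Its call was lost without control 1, control 2, knockdown 1 or knockdown 2 (limma adjusted p from 0.123 to 0.144). Of the 10 tested, 6 were well above background on all arrays, so their sum adds some values near background. The summed signal of the 10 was 0.651 to 0.69 on control and 0.586 to 0.607 on knockdown arrays. The part of these cell types in the histone results was not tested.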

How the data were processed

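RNA was measured on 6 one-colour Agilent mouse arrays. The authors ran Agilent Feature Extraction (version 10.10.1.1), and the deposited scanner tables hold its background-corrected processed signal as an intensity. The deposited series matrix holds log2 values, which matched log2 processed signal minus each array's 75th percentile, less a constant for each probe, to within 0.0076 over 43557 probes. Its column medians were -0.012 to 0.018. Per the methods the authors used GeneSpring and dropped genes under the 20th percentile. Control spots and outlier-flagged spots were left out here, the 75th percentile was subtracted, and a probe was kept if it reached the 20th percentile on all 3 arrays of a group. This kept 42126 probes. Accessions were matched to symbols of RefSeq GRCm38.p6, while the array annotation uses mm9.

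The 3 knockdown and 3 control arrays entered one two-sided limma fit (version 3.58.1 under R 4.3.3), by lmFit and eBayes, and p-values were adjusted by the Benjamini-Hochberg method over all probes tested. Calls needed an adjusted p under 0.05 and a fold change over 1.5. An exact permutation test of 3 against 3 arrays cannot go below 0.1 and was not used. The number of arrays limits the precision. The members and lists were chosen with earlier results of these data known. The S phase list and both marker lists each lack 1 gene that is not reported here, and their counts and sums are without it. The genes named are the targets, the called members and companion genes, the brightest members of each class, and those with the largest and smallest changes. Other members and marker genes were named after their values were seen. Alternatives were other scalings, background correction, the series matrix, filters, probe averaging, a variance trend, array weights, blocks and leaving out each array. Normexp (offset 50) used the median spot signal, since the tables hold no mean signal.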

Additional observations from a re-analysis of the deposited data

How the results depend on the processing

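Over 20 alternatives, 1112 of 1216 values of named genes kept their direction and their side of the threshold. Genes called lower numbered 6 with normexp and quantile normalization, 7 with the slide row as a block, 15 with median centring, 24 with no minimum fold and 8 to 13 when an array was left out. Genes called higher numbered 0 with median centring, 1 with normexp, 1 with the row block and 1 to 2 when an array was left out. The highest count of genes called higher was 3, reached with array weights and with no minimum fold. The median change was -0.26 with quantile normalization, -0.43 with median centring and -0.19 with normexp. Companion genes called numbered 32 with no minimum fold. Over all genes tested, 824 were called lower and 644 higher, against 1175 and 382 with median centring, 557 and 286 with normexp and 2602 and 2597 with no minimum fold.

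Reversals were all of uncalled genes. With quantile normalization H4f16 was 0.043, H4c11 0.017 and H2az1 0.048. With median centring, which took the median of all genes to -0.11, H4c12 was -0.062, H4c14 -0.0080, Lsm11 -0.025 and Tubb3 -0.044. With normexp H3c3 was 0.045, H4f16 0.042, H4c11 0.033, Npat -0.024, Hinfp 0.036, H2bc22 -0.00077 and H2az1 0.064. With the mean of its probes H4c9 was -0.18. With the row block H4f16 was 0.043, H4c11 0.033 and H1f6 0.030. When an array was left out, H4f16 ranged from -0.092 to 0.061, H4c11 from -0.11 to 0.031, H4c12 from -0.00023 to 0.10 and Npat from -0.27 to 0.56. The causes were not tested.

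Replicate numbers were shared by the groups, but same-numbered arrays did not deviate together (correlations 0.018, 0.067 and 0.0025), and 3 of the 6 arrays correlated best with their own number. With the replicate block 11 genes were called lower and 2 higher, and H2bc21 and Col1a1 lost their calls (limma adjusted p = 0.058 and 0.147). Signal over background limits H1f3, H2ac6 and Npat.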
